A study of Arabidopsis thaliana with 18 samples.

Results

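The genes described here were 10 regulators of epidermal cell fate in the Arabidopsis thaliana root, selected by gene identifier from what they are known to do. Their values were not used as a filter, but earlier results of these data were known when they were chosen. They were the MYB genes WEREWOLF (WER, AT5G14750) and MYB23 (AT5G40330), the bHLH genes GLABRA3 (GL3, AT5G41315) and ENHANCER OF GLABRA3 (EGL3, AT1G63650), the WD40 repeat gene TTG1 (AT5G24520), the homeodomain gene GLABRA2 (GL2, AT1G79840), the single-repeat MYB genes CAPRICE (CPC, AT2G46410), TRIPTYCHON (TRY, AT5G53200) and ETC1 (AT1G01380), and the receptor-like kinase gene SCRAMBLED (SCM, AT1G11130). All 10 were found among the 33560 genes of the sorted cell table and the 33201 entries of the root tip table, none of them in an entry that merged several gene names.

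In the root epidermis, cells that touch 1 cortical cell become non-hair cells and cells over the cleft between cortical cells become root hair cells. In the non-hair position WER binds GL3 or EGL3 together with TTG1, and this complex activates GL2, which blocks the hair program, and CPC. The CPC, TRY and ETC1 proteins lack an activation domain, move or act in the neighboring cells and compete with WER for the bHLH partners, so that hair fate follows there. MYB23 is a target of WER that can act in its place, and SCM perceives the positional cue and lowers WER in the hair position.

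RNA was sequenced from 5-day-old seedlings in 18 samples that formed 6 groups of 3 replicates. Root tips came from wild type (WT, Col-0) and from tcx2, a mutant of the CXC-domain transcription factor gene TCX2, for which the study names the knockout allele tcx2-3. The other 4 groups were protoplasts sorted for GFP from roots that all carried a tcx2 allele and 1 of these reporters: CYCD6:GFP for the cortex-endodermis initials, FEZ:FEZ-GFP for the initials of epidermis and lateral root cap, TMO5:3xGFP for xylem, and WOX5:GFP for the quiescent center (QC). The allele in these lines was tcx2-2, a knockdown, or tcx2-3, and which line carried which is not given, so allele and reporter cannot be told apart. No sorted WT cells were used here, so the sorted libraries compare cell populations within the mutant. The study describes its sorted replicates as biological. FEZ:FEZ-GFP carries the FEZ coding sequence, so FEZ reads there may come from the reporter. TCX2 had 1.29 FPKM (a level scaled to transcript length and to the mapped fragments of a library) in WT root tips, with the authors' interval from 0.715 to 1.82, and 0.303 FPKM in tcx2 (0.055 to 0.55). In the sorted libraries TCX2 lay between 0 and 0.722 FPKM.

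GL2, CPC and MYB23 are the known direct targets of WER, and the 300 bases before each gene start are shown because the results ask whether these genes followed WER between cell populations. The windows are on the strand of the gene, from RefSeq on TAIR10.1, and capitals mark the MYB core AACNG on either strand. They lie at chr1:30036656-30036955 (plus strand) for GL2, chr2:19050370-19050669 (minus strand) for CPC and chr5:16127425-16127724 (plus strand) for MYB23.
GL2: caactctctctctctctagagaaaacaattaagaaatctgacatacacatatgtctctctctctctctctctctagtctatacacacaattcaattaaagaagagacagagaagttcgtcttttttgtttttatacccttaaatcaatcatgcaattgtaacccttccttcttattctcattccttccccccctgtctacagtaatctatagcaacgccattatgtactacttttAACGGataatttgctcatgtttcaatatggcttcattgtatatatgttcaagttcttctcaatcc
CPC: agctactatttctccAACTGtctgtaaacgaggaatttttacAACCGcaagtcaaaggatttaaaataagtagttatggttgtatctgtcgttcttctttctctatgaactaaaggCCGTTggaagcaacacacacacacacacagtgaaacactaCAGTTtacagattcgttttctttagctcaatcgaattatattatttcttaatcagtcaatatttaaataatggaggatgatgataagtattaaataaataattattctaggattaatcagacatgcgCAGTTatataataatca
MYB23: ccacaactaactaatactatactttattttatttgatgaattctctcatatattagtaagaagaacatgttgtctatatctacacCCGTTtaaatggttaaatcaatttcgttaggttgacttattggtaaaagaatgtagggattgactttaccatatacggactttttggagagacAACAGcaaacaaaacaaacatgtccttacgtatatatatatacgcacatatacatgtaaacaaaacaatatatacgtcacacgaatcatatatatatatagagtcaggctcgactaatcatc
AACNG occurred 1 time before GL2, 5 times before CPC and 2 times before MYB23. Of 27437 windows of the same length before protein-coding genes, 76.04% held at least 1 match, and 6.72% held 5 or more. Before the other genes there were 4 matches for SCM, 1 each for WER, GL3 and TRY, and none for EGL3, TTG1 and ETC1. The bHLH core CANNTG, in 61.87% of all windows, occurred 2 times before GL2, 1 time before CPC, where it shared bases with 1 AACNG match, and not before MYB23. The HD-ZIP IV motifs TAAATGTA (3.71% of all windows) and TAAATGCA (1.90%), searched on both strands, were in none of the 10 windows. Such matches describe the letters and are not shown to be binding sites, since binding was not tested.

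In the 12 sorted libraries the FPKM values summed to between 551518 and 862385, of which a pair of ribosomal RNA genes took 78.1% to 85.9%, and 14878 to 22170 genes were above 0. Sequencing depth is unknown, so a gene listed at 0 may lie below detection. Of the 4 genes that drive the reporters, WOX5, TMO5 and CYCD6;1 did not follow the labels in these libraries, while FEZ had its highest median in FEZ:FEZ-GFP. WOX5 was listed at 0 in all 3 libraries labelled WOX5:GFP and was above 0 in replicates 1 and 2 of TMO5:3xGFP, at 1.49 and 0.997 FPKM. TMO5 was listed at 0 in 2 of the 3 TMO5:3xGFP libraries, with 0.206 FPKM in replicate 2, and had 3.75, 0.391 and 0.782 FPKM in WOX5:GFP. CYCD6;1 had no signal above 0 in its own population, CYCD6:GFP. FEZ had 2.90, 0.949 and 0.347 FPKM in FEZ:FEZ-GFP and 0.702, 0.917 and 0.408 in TMO5:3xGFP, against at most 0.0733 in the other 6 libraries. The 5 stele and xylem markers summed to 6.32 to 12.3 FPKM in WOX5:GFP and to at most 3.22 in the other populations, TMO5:3xGFP included. The 5 ground tissue markers summed to 0.508 to 2.49 FPKM in CYCD6:GFP and to 1.44 to 1.78 in TMO5:3xGFP, which overlap. Populations are therefore named below by their labels only, and the result that reached significance is also given from the CYCD6:GFP and FEZ:FEZ-GFP libraries alone. That fit leaves out WOX5:GFP and TMO5:3xGFP but is not free of the doubt about labels, since it keeps CYCD6:GFP.

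WER was the 1 gene of the 6 tested that was called in the overall comparison of the sorted populations, and the call depended on the settings. A gene that was not called is not shown to be equal between populations, and with limma array weights GL2, TRY and CPC were called as well (adjusted p = 0.00125, 0.0131 and 0.0406), as were 39.9% of all genes. WER (chromosome 5, 4763452 to 4764738) had 6.27, 5.87 and 4.84 FPKM in FEZ:FEZ-GFP and 1.78, 5.86 and 4.26 FPKM in TMO5:3xGFP. In CYCD6:GFP it was listed at 0 in replicates 1 and 3 and had 1.24 FPKM in replicate 2, and in WOX5:GFP it had 0, 4.23 and 2.35 FPKM. The order from the highest median was FEZ:FEZ-GFP, TMO5:3xGFP, WOX5:GFP and CYCD6:GFP. The FEZ:FEZ-GFP libraries all lay above those of CYCD6:GFP and of WOX5:GFP, the TMO5:3xGFP libraries above those of CYCD6:GFP, and the other neighbors in this order overlapped.

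Values were tested as log2(FPKM + 1) with limma over the 9979 genes that had at least 1 FPKM in at least 3 libraries, a scale on which the differences of low genes are understated. In the overall moderated F-test WER had an adjusted p of 0.0460, and 1 of the 6 epidermal fate genes tested was called at an adjusted p under 0.05, against 4.28% of all tested genes. This call was narrow. It was lost under 7 of 9 other settings (adjusted p of the F-test between 0.0167 and 0.233 over all 9). It was also lost when any of 8 of the 12 libraries was left out (0.0239 to 0.117 over all 12 omissions). Those 8 libraries were CYCD6:GFP replicates 1 and 3, all 3 of FEZ:FEZ-GFP, TMO5:3xGFP replicates 2 and 3, and WOX5:GFP replicate 3. From the CYCD6:GFP and FEZ:FEZ-GFP libraries alone, a fit chosen after the data were seen, WER was lower in CYCD6:GFP by a log2 difference of -2.34 (SE 0.47, adjusted p = 0.247, limma).

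In single contrasts of the full fit, WER had a log2 difference of -1.72 (SE 0.44, adjusted p = 0.117) between CYCD6:GFP and the mean of the other 3 populations and of 1.40 (SE 0.44, adjusted p = 0.307) for FEZ:FEZ-GFP. The pair with the widest separation was CYCD6:GFP against FEZ:FEZ-GFP, at -2.34 (SE 0.54, adjusted p = 0.0536), followed by CYCD6:GFP against TMO5:3xGFP at -1.83 (SE 0.54, adjusted p = 0.0602). A contrast was called where the adjusted p was below 0.05 and the fold exceeded 2, and none of these was. Leaving out WOX5:GFP replicate 1 brought the contrast of CYCD6:GFP with the other populations past the threshold (-1.95, adjusted p = 0.0436), and both pairs passed it without WOX5:GFP replicate 1 (adjusted p = 0.0299 and 0.0305) or without WOX5:GFP replicate 2 (0.0378 and 0.0446, limma).

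The sum of the root cap markers was higher in FEZ:FEZ-GFP and TMO5:3xGFP, the 2 populations with the highest WER medians. It did not follow WER in WOX5:GFP, where WER had 4.23 and 2.35 FPKM in replicates 2 and 3. WER is known to be transcribed in lateral root cap as well as in epidermis. The summed FPKM of the 4 root cap markers FEZ, SMB, BRN1 and BRN2 was 2.52 to 11.1 in FEZ:FEZ-GFP and 5.89 to 12.1 in TMO5:3xGFP, against 0 to 1.42 in CYCD6:GFP and 0 to 0.216 in WOX5:GFP. SMB, a NAC gene of root cap maturation, had 7.24, 4.24 and 1.91 FPKM in FEZ:FEZ-GFP and 3.19, 4.98 and 3.19 in TMO5:3xGFP, and was listed at 0 in 5 of the 6 other libraries. Of the 4 markers, 2 passed the filter, SMB and BRN1, and both were called in the overall test (adjusted p = 0.000798 and 0.0219, limma), while BRN2 was at 0 in CYCD6:GFP and WOX5:GFP. Across the 12 libraries, which include the differences between populations, Pearson's r with WER was 0.75 for SMB, 0.63 for FEZ, 0.32 for BRN1 and 0.28 for BRN2. Between deviations from the population means it was 0.24 for SMB, 0.07 for FEZ, -0.17 for BRN1 and -0.20 for BRN2, so the sign differed between markers within populations. The part of root cap cells in the WER result was not tested.

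**Figure D1:**
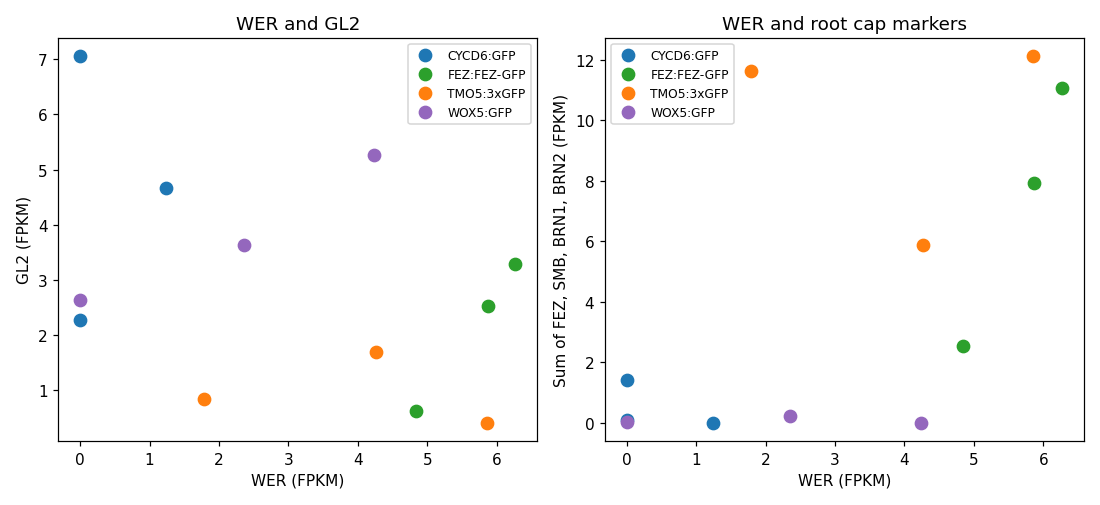
WER level on the horizontal axis against GL2 (left) and against the sum of the 4 root cap markers (right), all in FPKM, with 1 point per sorted library colored by reporter. The FEZ:FEZ-GFP and TMO5:3xGFP libraries have root cap sums of 2.52 to 12.1 and the CYCD6:GFP and WOX5:GFP libraries of at most 1.42, and GL2 reaches 7.06 where WER is listed at 0.

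GL2, the homeodomain gene that WER activates, did not have the order of WER. GL2 (chromosome 1, 30036956 to 30041952) had 7.06, 4.66 and 2.26 FPKM in CYCD6:GFP, 2.63, 5.26 and 3.63 in WOX5:GFP, 3.29, 2.51 and 0.608 in FEZ:FEZ-GFP, and 0.825, 0.401 and 1.69 in TMO5:3xGFP. The 3 TMO5:3xGFP libraries lay below all CYCD6:GFP and WOX5:GFP libraries and overlapped those of FEZ:FEZ-GFP. The overall test gave an adjusted p of 0.171 (limma). TMO5:3xGFP differed from the mean of the other populations by -1.13 on the log2 scale (SE 0.39, adjusted p = 0.0979), a contrast in which 5.52% of all genes were called and none of the 6 epidermal fate genes was. This contrast passed the threshold without CYCD6:GFP replicate 3 (-1.25, adjusted p = 0.0433) or without FEZ:FEZ-GFP replicate 3 (-1.27, adjusted p = 0.0450). Between CYCD6:GFP and TMO5:3xGFP the difference was 1.48 (SE 0.48, adjusted p = 0.0835), and without CYCD6:GFP replicate 3 it was 1.83 (adjusted p = 0.0419). Both rest on libraries in which the TMO5 transcript was nearly absent and the root cap sum was 5.89 to 12.1 FPKM. Pearson's r between GL2 and SMB was -0.60 over the 12 libraries and 0.44 for deviations from population means, and the part of root cap cells in the GL2 values was not tested. Pearson's r between GL2 and WER was -0.38 over the 12 libraries and 0.32 for deviations from population means. GL2 overlaps AT1G79850 on the opposite strand by 198 bases and a long non-coding RNA gene, AT1G09927, on its own strand by 155 bases, and how the authors' counting treated them is not given.

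The single-repeat MYB genes, which act against the WER complex, showed no population in which their libraries stood apart from all others. CPC (chromosome 2, 19049172 to 19050341) had 2.92, 0 and 0 FPKM in CYCD6:GFP, 1.35, 2.73 and 0 in FEZ:FEZ-GFP, 0.750, 2.60 and 3.07 in TMO5:3xGFP, and 2.08, 2.18 and 0.773 in WOX5:GFP. All 4 populations overlapped, and the overall test gave an adjusted p of 0.708 (limma). TRY (chromosome 5, 21582774 to 21584145) had 2.95, 2.14 and 0 FPKM in WOX5:GFP and 1.61, 0 and 0.777 in TMO5:3xGFP, and in CYCD6:GFP and FEZ:FEZ-GFP it was above 0 only in replicate 1, at 0.343 and 0.261. The log2 difference of WOX5:GFP from the other populations was 0.88 for TRY (SE 0.38, adjusted p = 0.358, limma), and the overall adjusted p was 0.342. ETC1 (chromosome 1, 147153 to 147942) was listed at 0 in 11 libraries, with 0.412 FPKM in replicate 1 of WOX5:GFP.

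**Figure D2:**
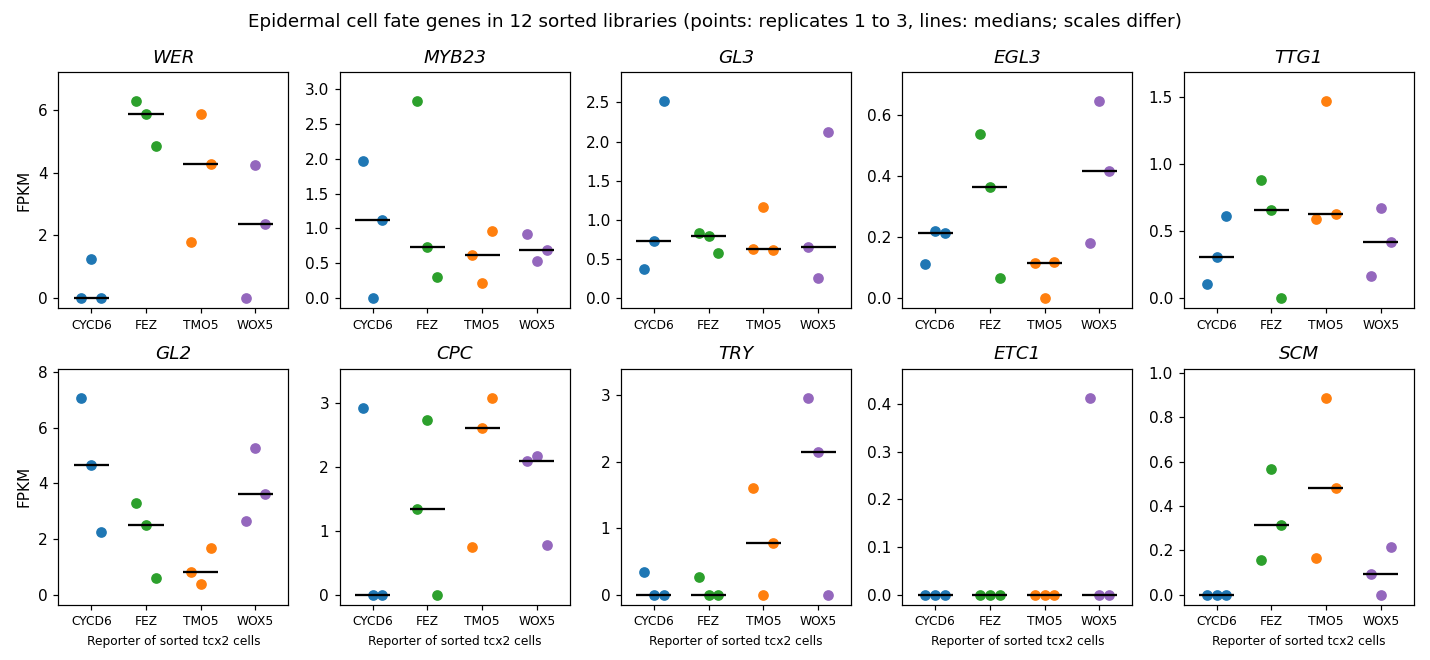
FPKM (vertical axis, a separate scale for each gene) of the 10 epidermal fate genes in the sorted tcx2 libraries by reporter, with points for the 3 replicates and lines for their medians. WER reaches 4.84 to 6.27 in the FEZ:FEZ-GFP libraries and at most 1.24 in CYCD6:GFP, while EGL3, TTG1, ETC1 and SCM stay at or below 1.47 in every library.

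MYB23, the WER relative, and the partners of WER were low in all populations. MYB23 (chromosome 5, 16127725 to 16129655) ranged from 0 to 2.82 FPKM with a median of 0.711 over the 12 libraries, and its highest values, 2.82 in FEZ:FEZ-GFP replicate 1 and 1.97 in CYCD6:GFP replicate 1, stood beside values of 0.298 and 0 in the same populations. GL3 (chromosome 5, 16529455 to 16532879) was above 0 in all 12 libraries, from 0.256 to 2.51 FPKM. Its highest values were in replicate 3 of CYCD6:GFP (2.51) and of WOX5:GFP (2.13), and it stayed between 0.574 and 0.830 in FEZ:FEZ-GFP. The overall adjusted p was 0.951 for MYB23 and 0.987 for GL3 (limma).

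EGL3, TTG1, ETC1 and SCM did not reach 1 FPKM in 3 libraries and were left out of the main fit. EGL3 (chromosome 1, 23599413 to 23602902), the second bHLH partner, had at most 0.643 FPKM. TTG1 (chromosome 5, 8370587 to 8372847), the WD40 scaffold, ranged from 0 to 1.47 FPKM with its highest value in TMO5:3xGFP replicate 2. SCM (chromosome 1, 3722857 to 3727450) was listed at 0 in the 3 CYCD6:GFP libraries and had 0.158, 0.569 and 0.316 FPKM in FEZ:FEZ-GFP, 0.165, 0.886 and 0.482 in TMO5:3xGFP, and 0.0939, 0 and 0.214 in WOX5:GFP. SCM was thus listed at 0 in the population where WER was lowest, but it stayed below 1 FPKM in every library. The CYCD6:GFP and WOX5:GFP libraries overlapped at 0. Pearson's r between SCM and WER was 0.66 over the 12 libraries and 0.27 for deviations from population means. In a fit of all 28571 genes above 0, the overall adjusted p was 0.498 for SCM and between 0.730 and 0.752 for the other 3, and 0.609% of genes were called.

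None of the 6 genes tested was called in any contrast of 1 population with the other 3. Over all genes, the contrasts called 0.200% for CYCD6:GFP, 0.241% for FEZ:FEZ-GFP and 0.802% for WOX5:GFP, beside the 5.52% for TMO5:3xGFP. At an unadjusted p under 0.05 there were 2 of the 6 genes for CYCD6:GFP (WER and GL2), 1 for FEZ:FEZ-GFP (WER), 1 for TMO5:3xGFP (GL2) and 1 for WOX5:GFP (TRY). The shares of all tested genes at that level were 10.9%, 7.27%, 20.5% and 11.3%. None was called between pairs of populations either, where 0.541% of all genes were called for CYCD6:GFP against FEZ:FEZ-GFP, 4.11% for CYCD6:GFP against TMO5:3xGFP, 0.150% for CYCD6:GFP against WOX5:GFP, 0.631% for FEZ:FEZ-GFP against TMO5:3xGFP, 0.832% for FEZ:FEZ-GFP against WOX5:GFP and 5.68% for TMO5:3xGFP against WOX5:GFP. At an unadjusted p under 0.05 these 6 pairs held 1, 2, 1, 0, 2 and 1 of the 6 genes, in that order, beside 9.11%, 19.1%, 5.06%, 10.7%, 10.01% and 20.2% of all tested genes. With 6 genes these counts are not set apart from the background. The median difference of the 6 genes lay between -0.24 and 0.15 in the contrasts with the other 3 populations, beside -0.10 to 0.14 over all tested genes.

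**Figure D3:**
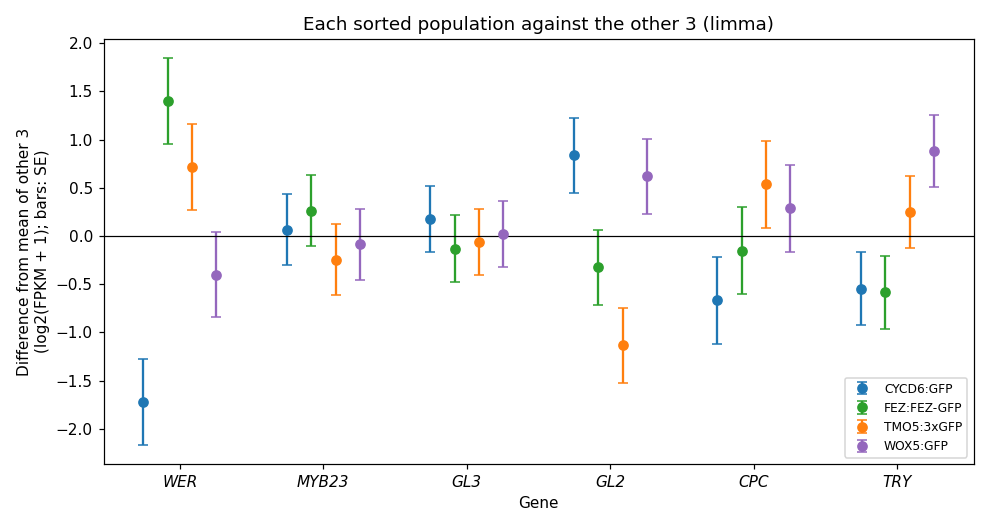
Difference of each sorted population from the mean of the other 3 in log2(FPKM + 1) (vertical axis) for the 6 tested genes, with limma standard errors as bars and colors for the reporters. WER spans -1.72 in CYCD6:GFP to 1.40 in FEZ:FEZ-GFP, GL2 reaches -1.13 in TMO5:3xGFP, and MYB23 and GL3 stay near 0.

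The genes most similar in pattern to each tested member were found by Pearson's r of log2(FPKM + 1) over the 12 sorted libraries, among the 9978 other genes tested. This is a description only, of libraries that include the differences between populations and whose depth is unknown. For WER the nearest genes were ATMG01330 (r = 0.92), AT5G66840, which encodes a SAP domain protein (0.87), and AT3G12320 (0.87). GL2 was followed most closely by AT1G06120, a fatty acid desaturase family gene (0.97), the metal transporter gene ZIP2 (0.94) and the ammonium transporter gene AMT1;3 (0.93). For TRY they were PP2-A10 (0.92), AT4G34103 (0.89) and AT1G53340 (0.86), and for GL3 they were AT1G48860 (0.93), UNE5 (0.91) and AT2G32730, a proteasome subunit gene (0.90). The nearest patterns were less close for MYB23, with AT1G80360 (0.82), AT5G01970 (0.79) and AT2G12610 (0.77), and for CPC, with AT2G13830 (0.80), AT1G15830 (0.79) and AT5G47360 (0.77). No epidermal fate gene was among the 3 nearest of another, and r between pairs of the 6 ran from -0.52 for GL3 and TRY to 0.37 for MYB23 and GL2.

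In root tips, which include the young epidermis, the comparison of tcx2 with WT asked whether loss of TCX2 changed these transcripts. The table holds 1 FPKM per genotype with an interval whose confidence level is not given, so there is no replicate error and no test. Root tips are bulk samples, in which fewer cells of a type and less RNA per cell cannot be told apart. A gene was called where it had at least 1 FPKM in a genotype and the 2 intervals did not overlap. None of the 10 genes was called, against 0.361% of the 17465 genes compared.

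GL2 had the highest level of the 10 genes, at 26.8 FPKM for WT, within an interval of 20.1 to 33.6, and 27.6 for tcx2 (20.3 to 34.9). WER had 21.3 FPKM in WT (13.8 to 26.0) and 19.8 in tcx2 (13.1 to 24.7), TTG1 had 18.4 (13.7 to 23.2) and 20.5 (15.3 to 25.7), and CPC had 15.5 (8.61 to 19.1) and 15.3 (8.61 to 18.2). Within each genotype the intervals of neighbors in this order overlapped, and those of GL2 and CPC did not. MYB23 followed at 8.77 FPKM in WT (5.30 to 11.6) and 10.4 in tcx2 (6.54 to 13.8), GL3 at 8.10 (5.90 to 10.3) and 8.96 (6.52 to 11.4), and EGL3 at 4.91 (2.92 to 6.98) and 3.58 (2.05 to 5.15). The lowest were ETC1 at 2.56 FPKM in WT (0.843 to 4.22) and 1.78 in tcx2 (0.422 to 2.95), TRY at 2.09 (0.557 to 3.53) and 1.82 (0.557 to 2.97), and SCM at 2.00 (1.26 to 2.72) and 1.17 (0.671 to 1.68). GL2 stood at the 70.3 percentile of the compared genes in WT and SCM at the 10.7 percentile.

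**Figure D4:**
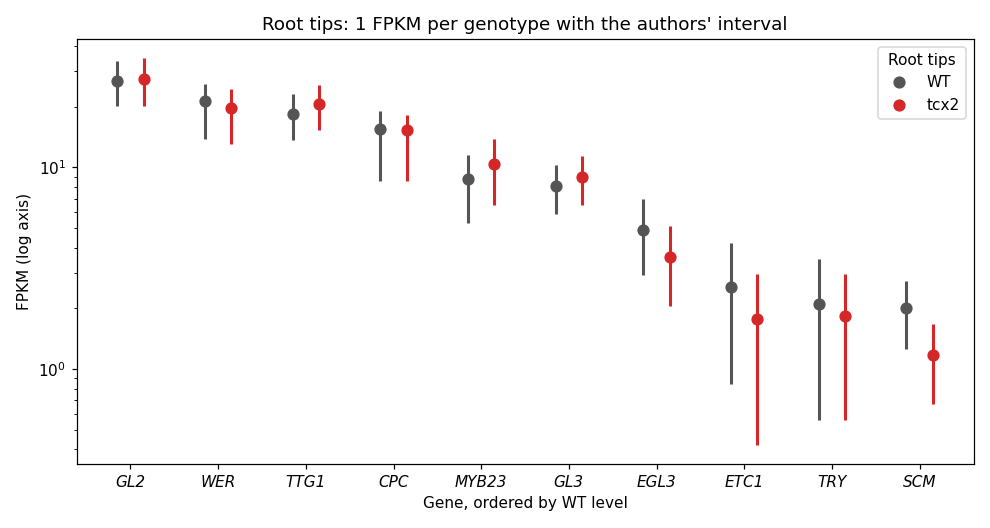
FPKM on a log axis of the 10 genes in WT (gray) and tcx2 (red) root tips, ordered by WT level, with points for the single value per genotype and lines for the authors' interval. The intervals overlap for every gene, from GL2 at 26.8 and 27.6 down to SCM at 2.00 and 1.17.

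The largest ratio was that of SCM, the positional receptor kinase gene, whose tcx2 level was 0.587 of the WT level. On the log2(FPKM + 1) scale its ratio of tcx2 over WT was -0.46, followed by EGL3 (-0.37), ETC1 (-0.36) and MYB23 (0.22). The other 6 lay between -0.13 and 0.15, with WER at -0.10, GL2 at 0.04 and CPC at -0.02. In all, 4 of the 10 genes were higher in tcx2, beside 8796 of all 17465 genes compared. The median ratio of the 10 was -0.06, beside 0.00 over all genes, of which 95% lay between -0.50 and 0.38. For the lowest genes, the interval bounds were whole multiples of a common step, to within 0.01 of a step. In these steps SCM had 47.7 in WT and 28.0 in tcx2, TRY 11.3 and 9.82, and ETC1 6.07 and 4.22.

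TTG1, at 18.4 FPKM in WT root tips, did not pass 1.47 FPKM in any sorted library. Other members were lower there too: GL2, at 26.8 FPKM in WT root tips, reached 7.06, and WER, at 21.3, reached 6.27. TRY, at 2.09, reached 2.95 in WOX5:GFP replicate 1, but its median over the 12 sorted libraries was 0.131. In the sorted libraries ribosomal RNA took 78.1% to 85.9% of the FPKM sum. The 2 tables came from different kits and were normalized separately, and the sorted cells all carried a tcx2 allele. These levels were therefore not tested against each other.

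Other genes of the pathway were taken from 6 lists of 36 genes. In the sorted libraries 18 of the 36 passed the filter. None was called in the overall test or in any contrast, with the percentages of all genes given above. None had an unadjusted p under 0.05 in the overall F-test (limma), beside 18.1% of all tested genes. In the contrasts with the other 3 populations that level was reached by MYC1 for CYCD6:GFP, EXPA7 for FEZ:FEZ-GFP, and RHD6 and COBL9 for TMO5:3xGFP. Between pairs of populations it was reached by MYC1, BIN2, RHD6, COBL9 and RHD2. The shares of all tested genes at that level in these contrasts are given above. In root tips 24 of the 36 reached 1 FPKM, none had separate intervals, and 17 were higher in tcx2, with a median log2 ratio of 0.14. Over all 17465 genes compared, 8796 were higher in tcx2.

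The 7 hair cell wall and growth genes were all higher in tcx2 root tips, beside 8796 of all 17465 genes compared. These 7 belong to 1 cell type and have 1 value per genotype, so the count was not tested. Their median ratio was 0.32, with a range of 0.20 to 0.51, and all 7 pairs of intervals overlapped. The largest ratios were those of PRP3 (0.51) and LRX1 (0.39), whose FPKM lay above their own intervals in both genotypes, so the overlap says little for them. EXPA7, a root hair expansin gene, had 432.1 FPKM in WT (290.2 to 510.9) and 540.1 in tcx2 (346.8 to 618.0), and COBL9, needed for hair elongation, had 130.8 (94.8 to 166.5) and 159.98 (115.2 to 202.8). Among the 9 hair cell bHLH genes, 7 were higher, with a median of 0.10. RHD6, which starts hair growth and is repressed by GL2, had 23.4 FPKM in WT (15.9 to 30.2) and 24.9 in tcx2 (17.4 to 31.3). RSL2, which acts later in hair growth, had 53.2 (40.4 to 66.0) and 44.8 (34.8 to 54.8), and the bHLH gene AT5G43175 had 1.23 (0.295 to 2.06) and 2.38 (1.03 to 3.69), the largest ratio of the lists at 0.60.

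The positional inputs and modifiers had a median of 0.08 over the 5 of 6 that passed. JKD, a zinc finger gene that acts from the cortex on SCM signaling, had 25.1 FPKM in WT (17.3 to 30.4) and 24.0 in tcx2 (17.03 to 30.1), and QKY, whose product acts with SCM, had 4.15 (2.93 to 5.39) and 3.11 (2.20 to 4.05). MYC1, a bHLH relative of GL3, had 12.1 (8.54 to 15.7) and 9.93 (6.64 to 13.2), and was the only 1 of 4 MYB and bHLH relatives that passed. TTG2 and ANL2 were the 2 of 6 that passed in their list, with ratios of 0.00 and -0.20. None of the 4 single-repeat MYB paralogs (ETC2, ETC3, TCL1 and TCL2) reached 1 FPKM.

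**Figure D5:**
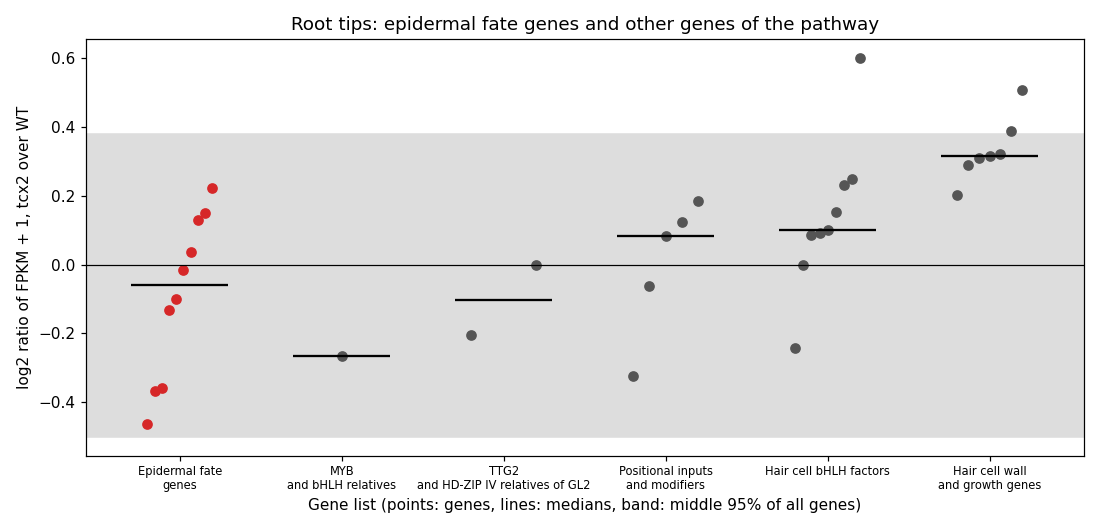
log2 ratio of FPKM + 1 in tcx2 over WT root tips (vertical axis) for the 10 epidermal fate genes (red) and the genes of 5 pathway lists that passed 1 FPKM (gray), with lines for medians and a band for 95% of all compared genes. The fate genes have a median of -0.06 and the hair cell wall and growth genes a median of 0.32, with single values mostly inside the band.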

How the data were processed

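RNA sequencing of 18 samples was used. Per the labels, root tip libraries were made with a NEBNext Ultra II Directional kit and sorted cell libraries with a SMARTer Stranded kit. The submitters' notes name Bowtie, Bowtie2, Cufflinks and edgeR on TAIR10 without versions. The authors deposited FPKM values, 1 for each of the 12 sorted libraries and, for root tips, 1 per genotype with an interval. No counts were given, and whole reads could not be recovered from the sorted values, where the fullest of the log2 ratio bins (0.02 wide) held at most 1.68% of low genes over 66 library pairs, so depth is unknown and no counting error is given. Of 32167 root tip entries compared with TAIR10.1, 100.00% overlapped the gene of the same name.

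Groups were taken from the labels. Sorted values were fitted as log2(FPKM + 1) with limma 3.58.1 (R 4.3.3), with group means, an intensity trend and Benjamini-Hochberg adjustment over 9979 genes. The contrasts are two-sided. Only the contrast of FEZ:FEZ-GFP with the other 3 populations was tried on simulated data, drawn from normal distributions. The F-test and the contrasts between pairs were not. The overall F-test was called at an adjusted p under 0.05, and contrasts also needed a fold over 2. Alternatives were pseudocounts of 0.1 and 5, no filter, median centring, quantile normalization, an equal sum without ribosomal RNA and organelle genes, array weights, no trend, a replicate block, no fold threshold and leaving out each library, and for root tips a 1.5-fold rule. The genes named are the 10 members, pathway list genes that were called, the 3 nearest patterns of each member and TCX2. List genes that were not called were chosen as examples after their values were seen. The members and lists were chosen with earlier results of these data known. Python 3.11.15 with pandas 2.3.3, numpy 2.4.6 and matplotlib 3.10.9 was used for tables and figures.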

Additional observations from a re-analysis of the deposited data

How the results depend on the processing

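The count of epidermal fate genes called in the overall test, 1 of 6 (WER), was 0 with a pseudocount of 0.1 or 5, without a filter, with median centring, quantile normalization, an equal sum without ribosomal RNA and organelle genes, or no intensity trend, and 0 from the CYCD6:GFP and FEZ:FEZ-GFP libraries alone, an alternative chosen after the data were seen. With limma array weights it was 4, and 39.9% of all genes were then called. Leaving out 1 library gave 0 to 1. The adjusted p of WER was 0.114 and 0.0637 with the 2 pseudocounts, 0.233 without a filter and 0.0513 to 0.0658 with the scalings and no trend (limma). The count in the contrast of CYCD6:GFP with the other populations, 0, was 1 with array weights and 0 to 1 when 1 library was left out. For TMO5:3xGFP it was 1 with array weights and 0 to 1 when 1 library was left out. Between pairs of populations, 0 became 4 with array weights, 1 with the replicate block, and 0 to 1 when 1 library was left out. For FEZ:FEZ-GFP and WOX5:GFP the count was 0 under all 22 alternatives each. The shares of all genes called in these contrasts under the alternatives are not given here. The counts under array weights, the block or left-out libraries are therefore not read as a result about the 6 genes. In root tips, 0 became 1 (SCM, log2 ratio -0.72) for more than 1.5-fold at a pseudocount of 0.1, and was 0 under the other 5. At a pseudocount of 1 this rule passed 2.62% of the 17465 genes compared. The share at 0.1 is not given here, and the 2 intervals of SCM, a low gene, overlapped. The 9 differences of WER, GL2 and TRY followed in detail kept their sign under every alternative. Over all 60 contrasts of the 6 genes, 26 took the other sign under at least 1 alternative, none of which had an unadjusted p under 0.05 in the limma fit reported (lowest 0.120). Same-numbered libraries did not deviate together (correlations -0.19 to 0.17, 2 of 18 over 0.1, and 4 of 12 libraries nearest to their own number), so the numbers do not pair the samples. With the replicate block, for which these numbers give no ground, WER was lower in CYCD6:GFP than in FEZ:FEZ-GFP (adjusted p = 0.0307) and TMO5:3xGFP (adjusted p = 0.0382, limma). Without the block these 2 pairs were not called (adjusted p = 0.0536 and 0.0602, limma). Unknown depth limits what a value of 0 shows in the sorted libraries, and in root tips there is 1 value per genotype.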
